A study of Mus musculus with 112 samples.

Results

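Transcripts of 10 adipocyte genes were followed in the gastrocnemius, the large calf muscle, of Diversity Outbred mice. The genes were taken from a fixed list: Adipoq, Plin1, Lep, Cfd, Fabp4, Retn, Cidec and Pparg as genes of white fat cells, and Ucp1 and Cidea as genes of brown and beige fat cells. All 10 were found in both deposited count tables, among 32544 gene symbols. The 112 libraries fall into 4 groups of 28: immobilized limbs of males, control limbs of males, immobilized limbs of females and control limbs of females. Each of the 56 animals was 16 weeks old and gave both limbs, after 3 weeks with 1 limb in a cast. The labels put the cast on the right limb in every animal, so side and treatment cannot be told apart, and each control limb came from an animal that also carried a cast. Diversity Outbred mice are a genetically mixed stock, so the animals of a group are not copies of a single genotype.

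White adipocytes store triglyceride in a single large droplet and secrete hormones, while brown and beige adipocytes burn fuel to make heat. Fat cells can lie between the fibres and fascicles of a skeletal muscle and around it. Adipoq encodes the hormone adiponectin, Lep the satiety hormone leptin, Retn the secreted peptide resistin, and Cfd the serine protease adipsin of the complement system. Plin1 coats the lipid droplet and restrains lipolysis, and Cidec helps droplets fuse and grow. Fabp4 carries fatty acids in the cytosol and is also made by capillary endothelium and macrophages. Pparg is the nuclear receptor that drives fat cell differentiation. Ucp1 uncouples mitochondrial respiration from ATP synthesis to release heat, and Cidea is a lipid droplet protein typical of brown fat.

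The letters upstream of 4 genes are shown because these genes carry the comparisons: Adipoq is the gene the others are set against, Plin1 and Lep have the smallest p-values between the sexes and between the limbs of males, and Ucp1 is the brown fat gene. The sequences are the 250 bases before the transcription start, from the RefSeq promoter table of GRCm38.p6, and the build of the counts is not given in the sources used here. Capitals mark a match on either strand to CCAAT, to TTGCNNAA (the letters of a C/EBP site), to AGGTCA (a site of nuclear receptors), to a direct repeat of AGGTCA with 1 base between the copies, to TATAAA or to TGACGTCA. A match to the repeat would also hold AGGTCA.
Adipoq, chr16:23146286-23146535, plus strand: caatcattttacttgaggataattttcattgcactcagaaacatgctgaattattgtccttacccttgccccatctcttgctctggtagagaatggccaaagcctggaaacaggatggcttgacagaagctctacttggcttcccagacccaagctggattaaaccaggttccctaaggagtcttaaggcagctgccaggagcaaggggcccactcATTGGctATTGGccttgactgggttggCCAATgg
Plin1, chr7:79732777-79733026, minus strand: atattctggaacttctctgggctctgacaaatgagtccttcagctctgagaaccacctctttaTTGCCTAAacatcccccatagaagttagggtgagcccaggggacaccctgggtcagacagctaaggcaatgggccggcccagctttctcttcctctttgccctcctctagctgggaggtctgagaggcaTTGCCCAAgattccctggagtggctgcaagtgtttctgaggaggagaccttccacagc
Lep, chr6:29059971-29060220, plus strand: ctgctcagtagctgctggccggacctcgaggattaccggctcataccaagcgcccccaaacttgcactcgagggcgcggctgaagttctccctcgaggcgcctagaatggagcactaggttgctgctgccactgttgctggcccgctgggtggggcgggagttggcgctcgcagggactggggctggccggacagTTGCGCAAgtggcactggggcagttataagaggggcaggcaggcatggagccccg
Ucp1, chr8:83290098-83290347, plus strand: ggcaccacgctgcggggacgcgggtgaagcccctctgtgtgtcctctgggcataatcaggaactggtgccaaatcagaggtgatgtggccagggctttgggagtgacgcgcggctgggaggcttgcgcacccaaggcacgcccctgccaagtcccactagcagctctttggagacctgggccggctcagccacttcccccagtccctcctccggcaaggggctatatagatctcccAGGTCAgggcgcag
The table held promoters of 8 of the 10 genes. Pparg and Cidec have more than 1 start there, so the 8 genes have 11 windows, and a gene counts here when any of its windows holds a match. TTGCNNAA lay upstream of 4 of the 8 (Plin1, Lep, Cidec and Pparg), against 10.8% of the 27025 genes in the table, or in 4 of the 11 windows, against 9.56% of all 32851 windows. CCAAT lay upstream of Adipoq and Pparg, against 37.5% of genes. AGGTCA lay upstream of Pparg and Ucp1, against 15.8% of genes, and TATAAA upstream of Pparg, against 14.3%. The direct repeat and TGACGTCA matched none of the 8, against 0.0407% of genes for the repeat and 1.77% for TGACGTCA. A match is a description of these letters and not a binding site.

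The total count per library ran from 1716485 to 9995936, with a median of 4395118. Muscle identity was checked with Acta1, the skeletal actin of muscle fibres, whose median was 31069 CPM. CPM stands for counts relative to the TMM-scaled total of the library. In 10 libraries of 10 animals, 7 females and 3 males, Acta1 lay under 50% of that median, and these are called low Acta1 libraries. They are 5 immobilized and 5 control limbs. The library labelled male 52, control limb, held 3.41 CPM of Acta1 and 7.43 CPM summed over 9 fibre markers, so the defining markers of the labelled tissue were almost missing there. The other 9 held fibre marker sums of 13269 to 58145 CPM, and the 102 remaining libraries 87648 to 271530 CPM. Lymphocyte markers (12 genes, all detected) summed to 21.1 to 2005 CPM in the low Acta1 libraries, with a median of 590 CPM and the lowest values in the immobilized limb of male 35 and the control limb of male 52, against a median of 2.30 CPM and a highest value of 208 CPM in the other 102. The skin keratins Krt5, Krt14, Krt10 and Krt1 summed to 26967 CPM in the immobilized limb of male 35, against a median of 3.02 CPM over all libraries. They summed to 8349 CPM in the immobilized limb of female 30, which is not a low Acta1 library. Without female 30 the calls among the 10 genes were the same as with all animals, while 142 genes of the whole table were called between the limbs of females, against 537 with all animals.

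All 10 genes had their counts concentrated in few libraries. Adiponectin counts (Adipoq) ran from 0 to 279 CPM with a median of 5.75 CPM in immobilized limbs of males, and from 0.202 to 1544 CPM with a median of 10.8 CPM in control limbs of males. In females Adipoq ran from 2.79 to 447 CPM with a median of 33.1 CPM in immobilized limbs, and from 0.854 to 553 CPM with a median of 16.5 CPM in control limbs. The ranges of the 4 groups overlapped. The middle range of a group is given here by its quartiles. Those of Adipoq were 2.57 to 16.8 CPM in immobilized limbs of males and 11.2 to 109 CPM in immobilized limbs of females, the groups with the lowest and the highest median, and even these overlapped. The same was true of each of the 10 genes: every neighbouring pair in the order of the 4 group medians had overlapping quartile ranges. In bulk muscle, fewer fat cells and less RNA per fat cell cannot be told apart.

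**Figure D1:**
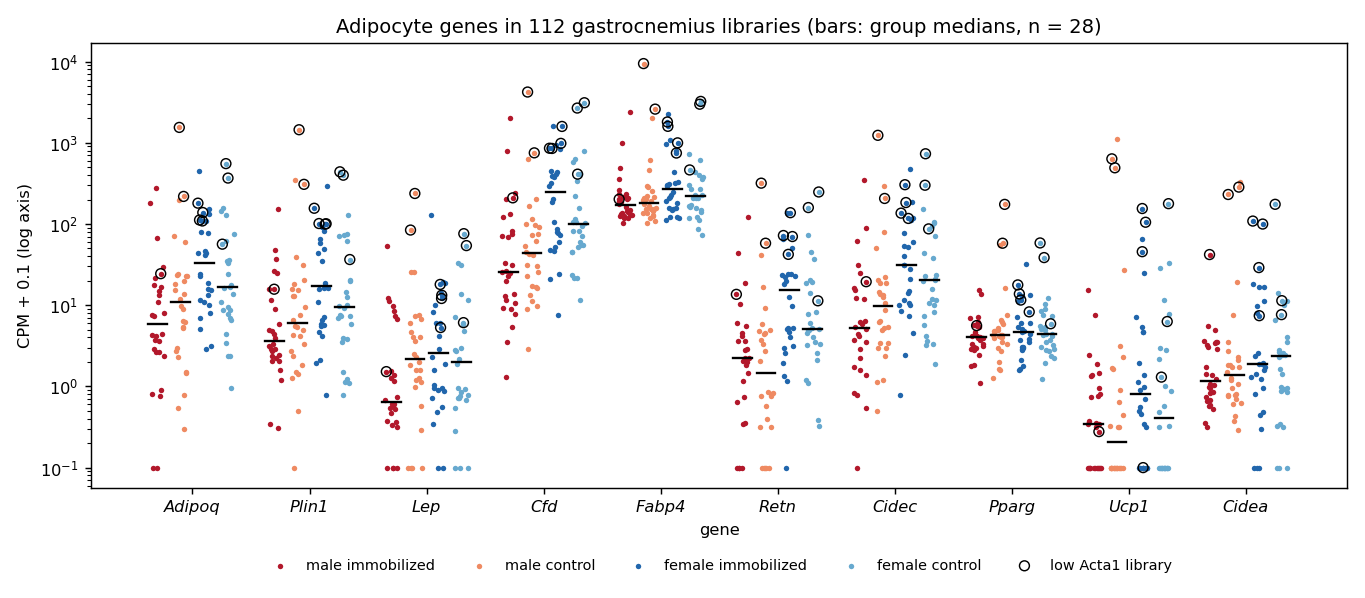
CPM + 0.1 of the 10 adipocyte genes (log axis) in each of 112 libraries, with groups from left to right as immobilized and control limbs of males, then immobilized and control limbs of females. Bars are group medians (n = 28), rings mark the 10 low Acta1 libraries, and points at 0.1 are libraries with 0 counts, 45 of them for Ucp1.

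The other secreted products had the same spread. Adipsin (Cfd) had medians of 25.7 CPM in immobilized and 43.3 CPM in control limbs of males, and 249 CPM in immobilized and 98.5 CPM in control limbs of females, and its lowest library held 1.22 CPM and its highest 4210.0 CPM. Resistin (Retn) had medians of 2.15 CPM in immobilized and 1.36 CPM in control limbs of males, and 15.4 CPM in immobilized and 5.02 CPM in control limbs of females. Both genes had higher medians in the female groups than in the male groups, within overlapping ranges. Leptin (Lep) had medians of 0.542 CPM in immobilized and 2.06 CPM in control limbs of males, and 2.47 CPM in immobilized and 1.92 CPM in control limbs of females. Lep had 0 counts in 13 of 112 libraries and 237 CPM in the highest. CPM carry no correction for transcript length, so levels are compared between libraries and not between genes.

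Among the lipid handling genes, perilipin 1 (Plin1) ran from 0.204 to 153 CPM with a median of 3.55 CPM in immobilized limbs of males, and from 0 to 1445 CPM with a median of 5.96 CPM in control limbs of males. Plin1 ran from 0.68 to 292 CPM with a median of 16.9 CPM in immobilized limbs of females, and from 0.689 to 438 CPM with a median of 9.44 CPM in control limbs of females. Cidec, the droplet fusion gene, followed the same order of group medians, with 5.13 CPM in immobilized and 9.59 CPM in control limbs of males, and 31.0 CPM in immobilized and 20.1 CPM in control limbs of females. Fabp4 was well above 0 in every library. Its lowest library held 72.0 CPM, its medians lay between 170 CPM in immobilized limbs of males and 269 CPM in immobilized limbs of females, and its highest library held 9429 CPM. The receptor gene Pparg also had counts in every library, from 1.01 to 174 CPM, with group medians between 3.95 CPM in immobilized limbs of males and 4.63 CPM in immobilized limbs of females.

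The brown fat genes were the most uneven. Ucp1 ran from 0 to 15.2 CPM with a median of 0.243 CPM in immobilized limbs of males, and from 0 to 1107 CPM with a median of 0.109 CPM in control limbs of males. Ucp1 ran from 0 to 155 CPM with a median of 0.701 CPM in immobilized limbs of females, and from 0 to 178 CPM with a median of 0.308 CPM in control limbs of females. It had 0 counts in 45 of 112 libraries: 11 immobilized and 14 control limbs of males, and 8 immobilized and 12 control limbs of females. At these depths a count of 0 allows up to 3 counts, for counting error only. Relative to total counts without TMM scaling, that upper bound is 0.30 to 1.75 CPM over the 45 libraries. Cidea ran from 0 to 330 CPM, with medians of 1.05 CPM in immobilized and 1.28 CPM in control limbs of males, and 1.78 CPM in immobilized and 2.26 CPM in control limbs of females.

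The 10 libraries with the most Ucp1 held 94.5% of all Ucp1 CPM, and the single highest, the control limb of male 13, held 36.8%. The corresponding share of the top 10 libraries was 83.7% for Cidea, 69.0% for Plin1, 68.8% for Lep, 62.7% for Cidec, 62.6% for Retn, 61.3% for Adipoq, 56.9% for Cfd, 53.6% for Fabp4 and 50.5% for Pparg, against a median of 15.6% over the 11886 tested genes. Only 3 tested genes had a larger share than Ucp1, and 317 a larger share than Pparg. The 10 low Acta1 libraries, chosen by Acta1 alone, held between 41.2% (Pparg) and 62.3% (Cidea) of the CPM of each gene. All 10 of them lay above the median of all libraries for 7 of the genes, 9 did for Lep and Fabp4, and 8 for Ucp1. Their median was 159 CPM for Adipoq and 75.2 CPM for Ucp1, against 11.1 CPM for Adipoq and 0.233 CPM for Ucp1 in the other 102. The 10 genes together made up 1.95% of the TMM-scaled total in the control limb of male 52 and 0.0332% in the median library. Lymphocyte markers were higher and fibre markers lower in these libraries, as given above, and their part in the results was not tested.

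Ucp1 was compared with Adipoq to ask whether a brown fat transcript follows a white fat transcript. Adipoq reached 100 CPM in 18 libraries and Ucp1 reached 10 CPM in 14, of which 8 were the same libraries. The libraries with much Adipoq differed widely in Ucp1. The control limb of male 13 held 1107 CPM of Ucp1 beside 197 CPM of Adipoq, or 561 Ucp1 counts per 100 Adipoq counts. The control limb of male 55 held 491 CPM of Ucp1 beside 218 CPM of Adipoq, and that of male 52 held 633 CPM beside 1544 CPM. At the other end, the control limb of female 48 held 1.20 CPM of Ucp1 beside 553 CPM of Adipoq, and the immobilized limb of male 31 held 1.35 CPM beside 279 CPM. The immobilized limbs of male 51 and female 2 had 0 counts of Ucp1 beside 183 and 138 CPM of Adipoq. Over the 18 libraries with 100 CPM of Adipoq or more, the median was 4.96 Ucp1 counts per 100 Adipoq counts. Of the libraries with much Ucp1, 6 of the 14 were low Acta1 libraries, while the highest, the control limb of male 13, had 20760 CPM of Acta1.

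**Figure D2:**
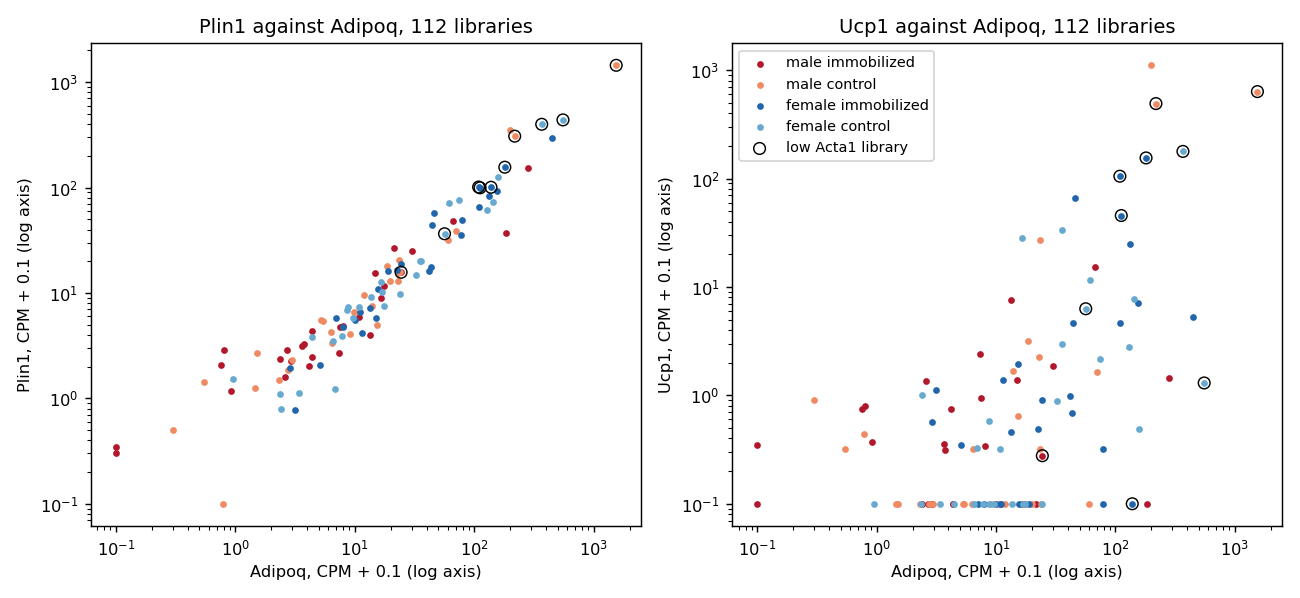
Plin1 (left) and Ucp1 (right) against Adipoq in 112 libraries, CPM + 0.1 on log axes, coloured by group, with rings on the 10 low Acta1 libraries. Plin1 lies along a narrow band, while Ucp1 at an Adipoq level above 100 CPM runs from 0 to 1107 CPM.

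Within groups, Ucp1 was correlated with Adipoq in 3 of 4 groups (log2 CPM with a prior count of 2, two-sided permutation test, Benjamini-Hochberg over the 10 relations computed, n = 28 each). Pearson's r was 0.30 in immobilized limbs of males (p = 0.12, adjusted p = 0.20) with a Spearman rho of 0.11 (p = 0.59, adjusted p = 0.74). In control limbs of males r was 0.73 (permutation p = 2e-05, adjusted p = 0.0002) and rho 0.48 (p = 0.0097, adjusted p = 0.024). In females r was 0.58 in immobilized limbs (permutation p = 0.0011, adjusted p = 0.0028) with a rho of 0.54 (adjusted p = 0.010), and 0.60 in control limbs (permutation p = 0.00073, adjusted p = 0.0024) with a rho of 0.67 (adjusted p = 0.0014). Without the 2 libraries farthest from the median Adipoq level, r was 0.39 in immobilized and 0.53 in control limbs of males, and 0.60 in immobilized and 0.56 in control limbs of females. Without the animals that have a low Acta1 limb, r was 0.30 in immobilized and 0.54 in control limbs of males, and 0.63 in immobilized and 0.50 in control limbs of females, and the last of these no longer passed (adjusted p = 0.052, permutation test, n = 21). Spearman's rho gave other calls. In control limbs of males rho did not pass without the animals with a low Acta1 limb (0.35, adjusted p = 0.22), without the 2 farthest libraries (0.35, adjusted p = 0.13) or without male 52 (0.42, adjusted p = 0.074). In control limbs of females rho passed without the animals with a low Acta1 limb (0.59, adjusted p = 0.017). Whether r differs between the groups was not tested. Animal numbers were split into 1 to 20, 21 to 40 and 41 to 59, since the labels give no other order of handling. In these blocks r was 0.76, 0.31 and -0.08 in immobilized limbs of males, 0.80, 0.06 and 0.89 in control limbs of males, 0.33, 0.54 and 0.65 in immobilized limbs of females, and 0.65, 0.32 and 0.70 in control limbs of females. The many libraries at 0 Ucp1 counts share 1 value, which limits what a correlation can show.

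The white fat genes had higher r with Adipoq than Ucp1 had, given as a description over the 28 libraries of each group, which also share differences in depth and in fibre content. The r with Adipoq lay between 0.95 and 0.98 for Plin1, between 0.96 and 0.98 for Cfd, between 0.95 and 0.97 for Cidec, between 0.92 and 0.94 for Retn, between 0.78 and 0.93 for Lep, between 0.80 and 0.92 for Fabp4, and between 0.67 and 0.86 for Pparg. In control limbs of males Pparg and Fabp4 both had an r of 0.86 with Ucp1, against 0.79 and 0.85 with Adipoq. In the other groups both had a lower r with Ucp1 than with Adipoq. Cidea, the other brown fat gene, had an r with Ucp1 of 0.94 in control limbs of males, 0.80 in immobilized and 0.77 in control limbs of females, and 0.30 in immobilized limbs of males. The highest immobilized limb of males held 65 Ucp1 counts, against 5523 counts in the highest control limb of males. Over all 112 libraries less their group means, the r of Cidea was 0.81 with Ucp1 and 0.60 with Adipoq. By rank it was about as close to either gene, with a rho of 0.54 with Ucp1 and 0.53 with Adipoq. In control limbs of males the rho of Cidea with Ucp1 was 0.48.

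The level in the immobilized limb of a mouse showed no detectable relation to that in its control limb. Between the limbs, Pearson's r of Adipoq was -0.04 in males and -0.10 in females, and r of Ucp1 was -0.01 in males and -0.07 in females, with adjusted permutation p-values of 0.89 to 0.97 (n = 28 each). Spearman's rho was 0.07 in males and -0.13 in females for Adipoq, and 0.28 in males and -0.04 in females for Ucp1, with adjusted p from 0.26 to 0.83. Over the 11886 tested genes the median r between the limbs was 0.14 in males and 0.02 in females, and 0.20 in males and 0.16 in females without the animals with a low Acta1 limb. For Adipoq r was -0.16 in males and -0.03 in females without those animals. Several mice had limbs far apart. Male 13 held 0 Ucp1 counts and 4.27 CPM of Adipoq in the immobilized limb, against 1107 and 197 CPM in the control limb. Female 46 held 24.7 CPM of Ucp1 and 132 CPM of Adipoq in the immobilized limb, against 0 and 0.854 CPM in the control limb. Male 31 held 279 CPM of Adipoq in the immobilized limb, against 0.202 CPM in the control limb. Neither limb of these 3 mice was a low Acta1 library.

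**Figure D3:**
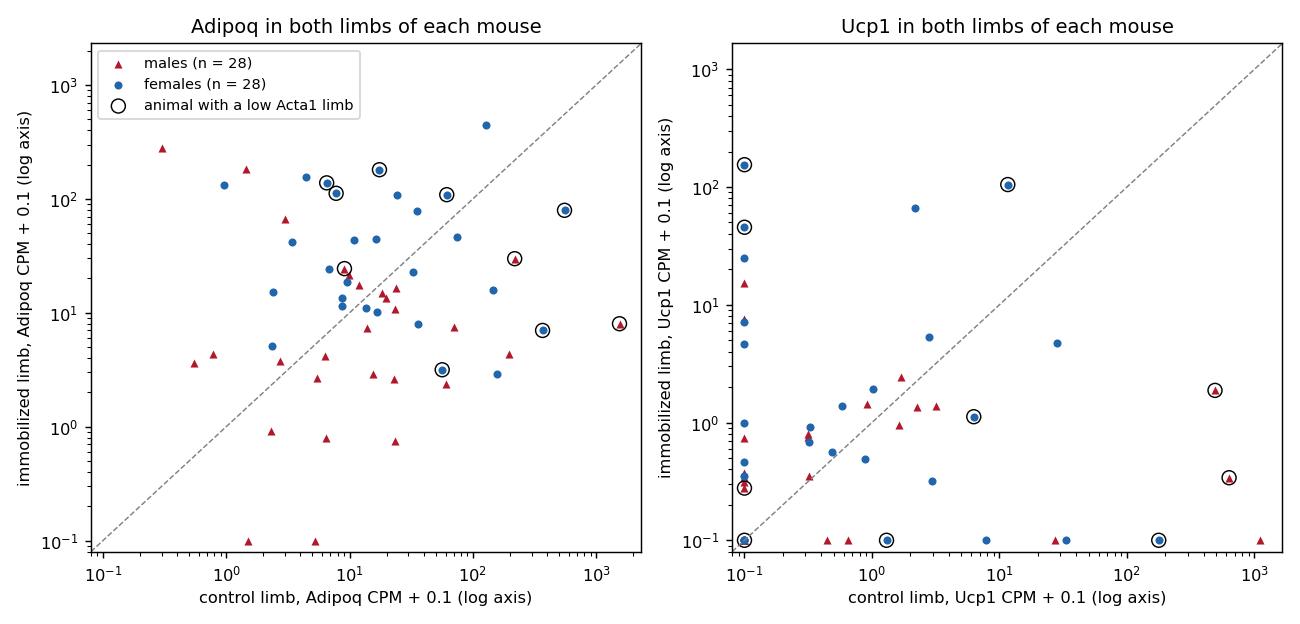
Adipoq (left) and Ucp1 (right) in the immobilized limb (vertical) against the control limb (horizontal) of each of 56 mice, CPM + 0.1 on log axes; the dashed line marks equal levels. Points lie on both sides of the line and far from it, with r between the limbs from -0.10 to -0.01.

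The within-mouse change is the log2 CPM of the immobilized limb less that of the control limb. For Adipoq its SD over mice was 3.46 in males and 3.01 in females, against a median SD of 0.61 in males and 0.72 in females over all tested genes. In males 16 of 28 mice differed at least 4-fold in Adipoq between the limbs, 5 with the immobilized limb higher and 11 with it lower. In females 14 of 28 did, 8 higher and 6 lower. Only 3 of the 11886 tested genes had a larger SD than Ucp1 (3.59) in males and 10 a larger one than Ucp1 (3.63) in females. Pparg had the smallest SD of the 10 genes, 1.83 in males and 1.61 in females. The changes of Ucp1 and Adipoq were correlated over mice: r was 0.50 in males (permutation p = 0.0079, adjusted p = 0.016, n = 28) and 0.69 in females (permutation p = 6e-05, adjusted p = 0.0003, n = 28). Spearman's rho was 0.33 in males, which did not pass (adjusted p = 0.18), and 0.65 in females (adjusted p = 0.0014). Without the 2 mice farthest from the median Adipoq change, r was 0.61 in males and 0.67 in females. In males the call rested on few mice: without male 52 r was 0.39 (adjusted p = 0.096), and without the 3 males with a low Acta1 limb 0.36 (adjusted p = 0.16). In females it was 0.60 without the 7 such animals (adjusted p = 0.017).

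None of the 10 genes passed the threshold, an adjusted p of at most 0.05, between immobilized and control limbs in either sex. All tests here are edgeR quasi-likelihood tests on counts, with a term for each mouse and Benjamini-Hochberg adjustment over all tested genes. In males 0 of 10 genes were called, against 2.26% of 11886 genes. The fitted log2 fold change of the immobilized over the control limb was -0.97 ± 0.66 for Adipoq (± SE), -0.72 ± 0.60 for Cfd, -0.12 ± 0.71 for Retn and -1.33 ± 0.68 for Lep, which had the smallest p (unadjusted 0.055, adjusted p = 0.31 by edgeR). It was -0.90 ± 0.66 for Plin1, -0.95 ± 0.66 for Cidec, -0.27 ± 0.36 for Fabp4 and -0.35 ± 0.35 for Pparg. The median of the 10 was -0.81, against 0.01 over all tested genes. The mean within-mouse change of Adipoq was -0.71 with a 95% interval of -2.05 to 0.64, and it was negative in 19 of 28 males. Without the 3 males with a low Acta1 limb, 0 of 9 genes were called, against 9.11% of 11731 genes, and the fitted change was -0.69 ± 0.62 for Adipoq and -0.88 ± 0.64 for Lep.

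In females 0 of 10 were called, against 4.52% of 11886 genes. The fitted log2 fold change of the immobilized over the control limb was 0.78 ± 0.62 for Adipoq, 0.80 ± 0.61 for Cfd, 0.80 ± 0.61 for Retn and 0.30 ± 0.62 for Lep (± SE). It was 0.79 ± 0.63 for Plin1, 0.69 ± 0.63 for Cidec, 0.37 ± 0.37 for Fabp4 and 0.04 ± 0.34 for Pparg. It was 0.90 ± 1.03 for Ucp1 and 0.57 ± 0.68 for Cidea. Adjusted p ran from 0.42 to 0.96 over the 10 genes. The median of the 10 was 0.73, against 0.01 over all tested genes. The mean within-mouse change of Adipoq was 0.63 with a 95% interval of -0.54 to 1.79, and it was positive in 18 of 28 females. Without the 7 females with a low Acta1 limb, 0 of the 9 genes that passed the low-count filter were called, against 17.2% of 11731 genes. The fitted change was then 0.83 ± 0.59 for Adipoq and 0.84 ± 0.56 for Plin1. The number of called genes in the whole table grew without these animals in both sexes, while that of the adipocyte genes stayed at 0. With only 9 genes, most of them correlated with Adipoq, a count of 0 at these shares does not set them apart.

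The value for Ucp1 in males depended on the model. It was -1.80 ± 1.31 in the fit with a term for each mouse (adjusted p = 0.50), and Cidea was at -0.67 ± 0.73. DESeq2 with the same model gave 0.16 ± 0.91 for Ucp1, limma voom gave -6.17 ± 1.08 (adjusted p = 0.0004), and edgeR without the term for each mouse, that is without the pairing, gave -6.10 ± 1.03 (adjusted p = 3.2e-05). Without the pairing Plin1, Pparg and Cidea were called lower in males as well, and limma voom called Cidea. The male Ucp1 counts sit in 3 control limbs: 1107 CPM in male 13, 633 CPM in male 52 and 491 CPM in male 55, against 27.2 CPM in the next, male 32. Their immobilized limbs held 0, 0.24 and 1.78 CPM. The mean within-mouse change of Ucp1 in males was -0.84 with a 95% interval of -2.24 to 0.55. The immobilized limb was higher in 12 males, lower in 9 and equal in 7. A sign-flip permutation test of this change gave p = 0.23 (adjusted p = 0.51). Without the animals with a low Acta1 limb, which removes males 52 and 55, Ucp1 no longer passed the low-count filter. With no filter its fitted change was -0.64 ± 0.96 in males and 0.49 ± 0.84 in females. In the full set it passed narrowly, with 24 libraries at or above 2.28 CPM where 22.6 were needed.

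Averaged over the sexes, 0 of 10 genes were called, against 20.0% of 11886 genes. The fitted log2 fold change lay between -0.51 ± 0.46 for Lep and 0.34 ± 0.47 for Retn, with Adipoq at -0.10 ± 0.44. The median of the 10 genes was -0.08, against 0.01 over all tested genes. Without the animals with a low Acta1 limb 0 of 9 were called, against 32.5% of 11731 genes. The male minus female difference of the change was negative for each of the 10 genes, but 0 of 10 were called. It was -1.75 ± 0.90 for Adipoq, -1.69 ± 0.91 for Plin1 and -2.71 ± 1.66 for Ucp1. The genes are correlated over libraries, as given above, so their signs are not 10 separate observations. In that contrast 0 of the 11886 genes were called (0%), with 193 genes under 0.05 before adjustment, and the unadjusted p of the 10 genes ran from 0.058 to 0.42. DESeq2 and limma voom each called 0 of the 10 there, and edgeR without the pairing called Ucp1 (-6.69, adjusted p = 0.013).

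**Figure D4:**
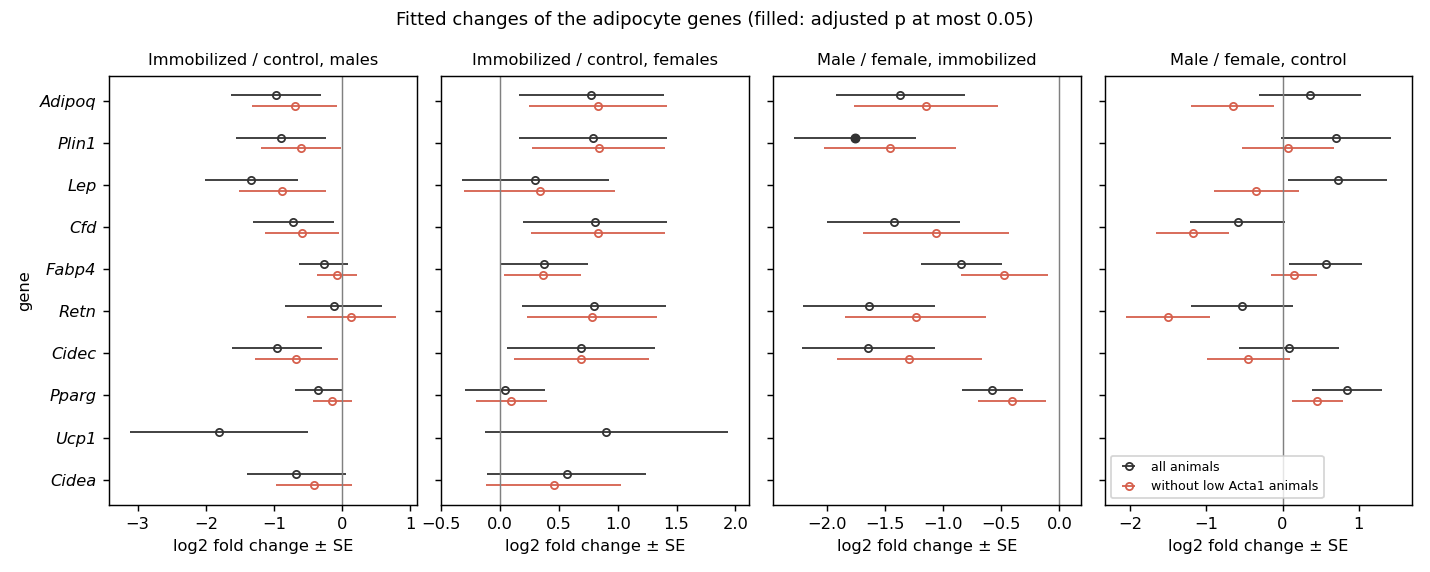
Fitted log2 fold changes (± SE, edgeR) of the 10 adipocyte genes, from left to right for immobilized over control limbs in males and in females, and for males over females in immobilized and in control limbs. Black points use all animals, red points leave out animals with a low Acta1 limb, and filled points have an adjusted p of at most 0.05, which Plin1 alone reached, in immobilized limbs of males over females.

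Between the sexes, Plin1 was lower in males in the immobilized limb. Here limbs of different mice were compared, without a term for each mouse, and the counts of each sex were deposited in a table of their own, so sex and any difference in handling between the tables cannot be told apart. Its median was 3.55 CPM in males and 16.9 CPM in females, and the ranges overlapped. The fitted log2 fold change of males over females was -1.76 ± 0.53 (edgeR, adjusted p = 0.039). It was the 1 called gene of the 7 that passed the filter (Lep, Ucp1 and Cidea did not), against 4.31% of 11144 genes, and 2.91% were called lower. The call was lost without the animals with a low Acta1 limb (-1.46, adjusted p = 0.21, with 1.70% of 11150 genes called), without male 52 (-1.73, adjusted p = 0.052) and without males 15 and 16 (-1.66, adjusted p = 0.070). In the number blocks Plin1 was at -1.75, -0.56 and -2.56, and not called in any. The other 6 tested genes were not called, with values from -1.65 ± 0.58 for Cidec to -0.58 ± 0.27 for Pparg. Without a low-count filter Ucp1 (-3.56, adjusted p = 0.0018) and Cidea (-1.88, adjusted p = 0.032) were called lower in males too, but 0 of the 10 genes were when the animals with a low Acta1 limb were left out as well.

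In the control limb 0 of the 8 tested genes were called between males and females, against 1.74% of 10974 genes. The values ran from -0.59 ± 0.63 for Cfd to 0.84 ± 0.46 for Pparg, and the median of the 8 was 0.47, against -0.01 over all tested genes. Without the animals with a low Acta1 limb 0 of 8 were called, against 3.13% of 10935 genes, the median of the 8 was -0.40 and Adipoq was at -0.65 ± 0.55, against 0.37 ± 0.67 with all animals. With no low-count filter Ucp1 was at 3.02 ± 0.97 (adjusted p = 0.063 by edgeR) and Cidea at 1.75 ± 0.75, neither called. Without male 52 alone Cfd was called lower in males (-1.90, adjusted p = 0.049 by edgeR).

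Other genes of fat cells and of lipid metabolism were read from lists that hold no member. Averaged over the sexes, of 14 genes of lipolysis and uptake 4 fell, among them Lpl, the lipase that frees fatty acids from lipoproteins, at -0.80 ± 0.15 (adjusted p = 0.0003 by edgeR) and the fatty acid transporter Cd36 at -0.53 ± 0.13. Abhd5, the coactivator of triglyceride lipolysis, was at -0.20 ± 0.07. Of 11 other lipid droplet genes 5 fell and 1 rose, with Plin5, a perilipin of oxidative tissues, at -0.79 ± 0.17, G0s2, an inhibitor of triglyceride lipase, at -0.56 ± 0.14, Fitm2 at -0.37 ± 0.08 and Plin4 at -0.36 ± 0.11. Of 16 genes of fatty acid and triglyceride synthesis 3 fell and 1 rose: Acsl1, Gpam and Dgat2 were at -0.48, -0.53 and -0.57, and the desaturase Scd2 at 0.42. These counts are to be read against 10.2% of all genes called higher and 9.82% called lower. Markers of other cell types moved in the same comparison: 7 of 7 macrophage markers were called higher, with a median of 0.87, 4 of 5 tested Schwann cell markers higher, with a median of 0.48, and 3 of 4 blood endothelium markers lower, with a median of -0.20. Their part in the list genes' changes was not tested. The lipid genes named in this paragraph had r with Adipoq from -0.29 for Gpam to 0.51 for Dgat2 (log2 CPM less the group mean, 112 libraries). Whether their changes arose in fat cells was not tested.

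In the average over the sexes 9.82% of all genes were called lower, the share to set beside each list here. Of the genes named in this paragraph, those called in that fit had r with Adipoq from -0.37 for Ppargc1a to 0.38 for Npr3. Of 11 adipogenic regulators 1 fell, Mlxipl, the carbohydrate response factor, at -0.37 ± 0.10 (edgeR, adjusted p = 0.0087). Klf15, Srebf1 and Rxra were at -0.33, 0.25 and -0.16 and were not called. Of 7 tested adipokines and receptors 2 fell: Nampt, an enzyme of NAD synthesis, at -0.49 ± 0.09 and the adiponectin receptor Adipor2 at -0.28 ± 0.06. Of 12 tested thermogenic genes 2 fell, the coactivator Ppargc1a at -0.60 ± 0.16 and the thioesterase Acot11 at -0.71 ± 0.18. Of 11 other white adipocyte genes 1 fell, Npr3, the clearance receptor of natriuretic peptides, at -0.74 ± 0.23, and it was not called without the animals with a low Acta1 limb (-0.53, adjusted p = 0.089). Without those animals Klf15 (-0.27), Rxra (-0.18) and Srebf1 (0.34) were called as well as Mlxipl, 4 of 11 in all, and of the other white adipocyte genes Fabp5 alone, at 0.61 (adjusted p = 0.049). In that fit 32.5% of all genes were called, near the share of the regulators. Of 10 thermogenic genes tested there 4 were called lower, against 1962 of all 11731 genes called lower. In immobilized limbs of males against females, 7 of 15 tested synthesis genes and 4 of 9 tested other white adipocyte genes were called lower. So were 3 of 12 lipolysis and uptake genes, 1 of 7 thermogenic genes and 1 of 11 regulators. Of 11 lipid droplet genes and 7 adipokines and receptors 0 were. No gene of these lists was called higher, and 2.91% of all genes were called lower. With the low Acta1 animals left out, 6 synthesis and 2 other white adipocyte genes were called lower, against 0.834%. The lipolysis, thermogenic and regulator lists then held 1 each, the lipid droplet and adipokine lists 0. Over 112 libraries the median r with Adipoq was 0.61 for the synthesis list and 0.84 for the other white list. Their calls are thus not separate observations.

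The members themselves set aside, the genes most like Adipoq over the 112 libraries, by r of log2 CPM less the group mean, were Cyp2e1 (0.93), Pck1 (0.92), Cdo1, Prkar2b, Ifi27l2a, Slc7a10, Lgals12 and Mrap (0.89). Pck1 encodes an enzyme of glycerol synthesis in fat and Mrap the accessory protein of the melanocortin receptor. Among the members Cfd (0.97), Cidec (0.97) and Plin1 (0.96) were above all of these. Those most like Ucp1, again without the members, were Kcnk3 (0.82), a potassium channel gene, Thrsp (0.81), Letmd1, Fasn, Acaca, Agpat2, Tkt and Acly (0.77), and the member Cidea (0.81) lay between Kcnk3 and Letmd1. Of these 8, 5 are on the list of fatty acid and triglyceride synthesis and 2 on the thermogenic list, while of the 8 most like Adipoq 3 are on the list of other white adipocyte genes and 1 on that of synthesis. The 8 most like Adipoq had r with Ucp1 from 0.55 for Cyp2e1 to 0.72 for Prkar2b. The 8 most like Ucp1 had r with Adipoq from 0.54 for Letmd1 to 0.79 for Fasn, whose r with Ucp1 was also 0.79. Over all 11885 other tested genes, members included, the median r was 0.01 with either gene, and 45 genes reached 0.8 with Adipoq and 3 with Ucp1.

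Without the animals with a low Acta1 limb (92 libraries) Scd1 replaced Lgals12 among the 8 most like Adipoq, and 4931406C07Rik and Tusc5 replaced Agpat2 and Acly among the 8 most like Ucp1, with Kcnk3 at 0.72 and Letmd1 at 0.71. Over all 112 libraries, 13 of the 16 tested synthesis genes had a higher r with Ucp1 than with Adipoq, as had 10 of the 12 tested thermogenic genes, 7 of the 9 fibre markers and 0 of the 11 other white adipocyte genes. The share over all tested genes was not computed, so these counts do not set a list apart. A higher r can also be a less negative one, as for Cox8b at -0.18 with Ucp1 and -0.35 with Adipoq. The thermogenic list had a median r of 0.28 with Ucp1 and 0.12 with Adipoq. Without the animals with a low Acta1 limb the counts were 10 of 16, 9 of 12, 7 of 9 and 0 of 11. The thermogenic coactivator Ppargc1a had an r of -0.35 with Ucp1 and -0.37 with Adipoq over all libraries, and of -0.22 with Ucp1 and -0.18 with Adipoq without those animals. The 9 fibre markers had r from -0.48 to -0.39 with Adipoq and from -0.47 to -0.41 with Ucp1 in all libraries, and from -0.30 to 0.04 with Adipoq and from -0.18 to -0.05 with Ucp1 without those animals. Over all libraries the 7 macrophage markers had r from 0.50 to 0.58 with Adipoq and from 0.26 to 0.35 with Ucp1, and their part in these relations was not tested.

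**Figure D5:**
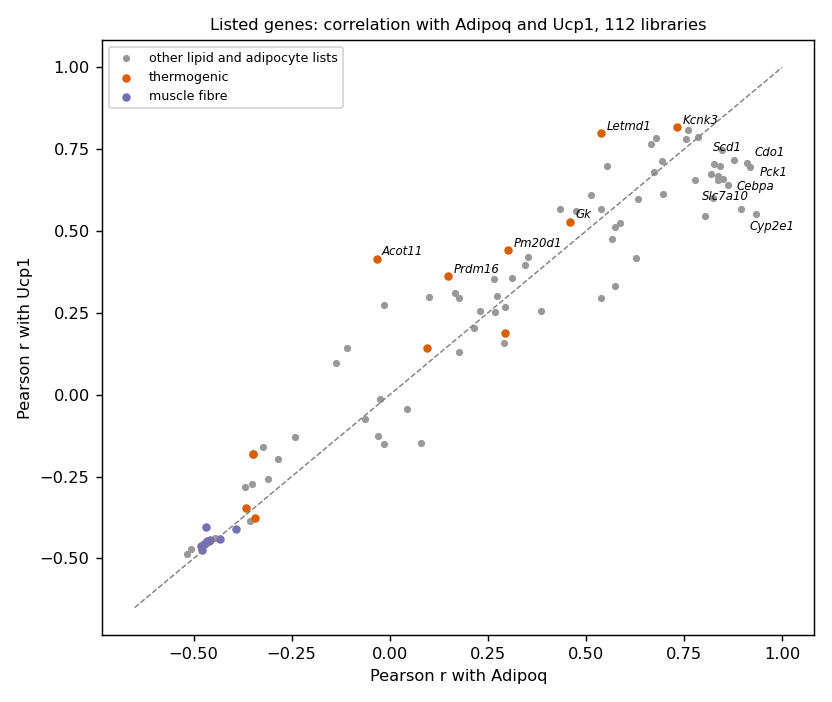
Pearson r with Ucp1 (vertical) against r with Adipoq (horizontal) of each tested gene of the lipid, adipocyte, thermogenic and fibre lists, log2 CPM less the group mean over 112 libraries. Kcnk3 and Letmd1 lie above the dashed line of equal r, Cyp2e1 and Slc7a10 below it, and the fibre markers near -0.45 on both axes.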

How the data were processed

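Total RNA libraries (Illumina Stranded Total RNA with Ribo-Zero Plus, per the labels' protocols) gave raw read counts per gene symbol, deposited by the authors in 2 tables for females and males. Which aligner, counter and build were used is not given in the sources used here. Depth ran from 1716485 to 9995936 counts per library. The tables were joined by symbol and columns matched to samples by animal number and limb. CPM use edgeR's TMM library sizes, and log2 CPM a prior count of 2. The upper bound for libraries without a Ucp1 count uses total counts without TMM scaling.

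edgeR 4.0.16 quasi-likelihood tests (R 4.3.3) followed its filter on low counts, with a term for each animal and an immobilization effect per sex, and without that term between the sexes, with Benjamini-Hochberg adjustment over all tested genes and a threshold of 0.05. DESeq2 1.42.0, limma voom 3.58.1, a sign-flip permutation test of the within-mouse changes, other filters and scalings, animal number blocks and left-out animals were alternatives. Correlations used 100000 resamples (scipy 1.17.1) over a family of 10 relations. Limbs carry the animal number in the labels and so are paired: over 56 animals the median correlation of deviations was 0.364 within an animal and 0.0068 between animals. On 150 genes, 54 of 56 immobilized limbs matched their own control limb best, and males 15 and 16 matched each other's, so results were also computed without them. The fits without male 52 and without female 30, and the fit without a filter and low Acta1 animals together, were chosen after seeing the data. The fits were also run on simulated counts with known changes. That simulation held no differences between animals other than sex, so it does not test the pairing.

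The members and gene lists were chosen with earlier results of these data known. Named beside the 10 members were up to 4 genes per list with the smallest p in the average over the sexes, and the 8 genes with the highest r with Adipoq and with Ucp1. Of the lipolysis and uptake list only the genes called lower are given, and calls in the other direction are not reported here. A low Acta1 library has under 50% of the median Acta1 CPM.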

Additional observations from a re-analysis of the deposited data

How the results depend on the processing

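For the 10 genes 72 of 804 values under an alternative had the other sign, 26 of them in the average over the sexes, and 0 of these were called in either. In males, limma voom called 2 genes (Ucp1 and Cidea) and the fit without the replicate block, that is without the pairing, 4 (Plin1, Pparg, Ucp1, Cidea). In the average limma voom called 1 (Ucp1) and no replicate block 4 (the same names), and in the male minus female difference no replicate block called 1 (Ucp1). Between the sexes in immobilized limbs 3 genes were called with no low-count filter and with a mean of at least 1 CPM, 2 with DESeq2 (Plin1 and Cidec) and 3 with limma voom (Adipoq, Cfd and Cidec, with Plin1 at adjusted p = 0.079). The count there was 0 without the low Acta1 animals with or without the filter, without male 52, without males 15 and 16, and in each number block. In control limbs it was 1 (Cfd) without male 52, and DESeq2 gave no adjusted p for the 8 genes there. For Ucp1 with Adipoq, relations that passed with all animals did not pass in these number blocks (1 to 20, 21 to 40, 41 to 59): control limbs of males at r of 0.0553 and 0.890 in the last 2, immobilized limbs of females at 0.330, 0.541 and 0.654, and control limbs of females at 0.648, 0.319 and 0.702. Control limbs of females at 0.499 without the low Acta1 animals did not pass either. The changes in males did not pass at 0.683, 0.096 and 0.741 in the blocks, at 0.362 without the low Acta1 animals and at 0.389 without male 52, and those in females at 0.474 and 0.584 in the first 2 blocks. Blocks hold 8 to 10 animals per sex. The cause of these differences was not tested. Genes called in the whole table ranged over the alternatives from 0 to 2018 in females (537 with all animals), 0 to 1069 in males (269), 1 to 3812 in the average (2375), 0 to 1 in the difference (0), 7 to 1743 between the sexes in immobilized limbs (480) and 7 to 836 in control limbs (191). In the 45 libraries with 0 Ucp1 counts, counting error alone allows a level of up to 3 counts. Relative to total counts without TMM scaling, that upper bound is 0.30 to 1.75 CPM.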
